A study of Mus musculus with 8 samples.

Results

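A set of 8 mouse long noncoding RNAs was followed across GDNF-pulsed and unpulsed kidney tubuloid cultures. Malat1, Neat1 and Kcnq1ot1 stay in the nucleus, Gas5, Snhg1 and Snhg12 are spliced host genes of small nucleolar RNAs, Epb41l4aos is a spliced RNA beside a coding gene, and Mir17hg is the host of the miR-17-92 microRNA cluster. They were 8 of the 24063 genes listed and took up 9 of the 33068 transcript rows. Of the 8, 7 were found by symbol, and Epb41l4aos, listed under the older symbol 2410004N09Rik, by its RefSeq accessions. The members were selected on their counts, shares and TPM in these same cultures, with the difference between the groups known, so their values are a description and carry no test.

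Malat1 is among the most abundant nuclear RNAs of mammalian cells and gathers in nuclear speckles, where splicing factors are stored. Its gene neighbour Neat1 is the scaffold of paraspeckles, bodies that hold RNA-binding proteins such as Nono and Sfpq. Kcnq1ot1 is an unspliced RNA transcribed from the paternal chromosome across Kcnq1, where it keeps neighbouring imprinted genes silent in cis. The host genes are transcribed for what lies in their introns, the small nucleolar RNAs (snoRNAs) that guide modification of ribosomal RNA, while their spliced exons are usually degraded by nonsense-mediated decay. Mir17hg is the precursor from which the Drosha and Dgcr8 complex cuts a cluster of microRNA hairpins known for promoting proliferation.

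Tubuloids are 3D cultures in which kidney tubule fragments grow inside Matrigel, here from mice whose age the labels give as postnatal day 7 to 10, while the methods name a younger range. All cultures carried the genotype Pkd2fl/fl Pax8rtTA TetOCre mTmG, in which Cre is induced through a Pax8-driven transactivator in renal epithelium, and no doxycycline is named for them. In 4 cultures (numbers 6, 12, 17 and 22) the medium held GDNF, the glial-derived neurotrophic factor that drives branching of the collecting duct system, for 24 h, and 4 controls (numbers 3, 7, 14 and 21) had the same growth factors without it, with RNA taken on culture day 7. Nothing in the labels says that each culture came from a separate animal. Each group drew on at least 2 animals, since Xist RNA marked 2 of its cultures and Y-linked RNA the other 2, but how much of the spread between cultures is technical is not known.

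Total counts ranged from 72991721 to 93074126 after GDNF and from 85536401 to 97490625 in controls. Control 3 stood apart: its composition (TMM) factor was 0.790, against 0.963 to 0.982 in the other controls and 1.07 to 1.11 after GDNF. Short transcripts, up to 1632 bp, held 43.2% of the counts in control 3, 31.8% to 36.7% in the other controls and 27.3% to 32.1% after GDNF. Long ones, from 4106 bp, held 13.5%, 20.2% to 21.1% and 21.99% to 27.3%. Summed kidney epithelium markers (8 of 8 listed, none at 0 in every culture) lay at 1038 to 1907 CPM after GDNF and 558 to 3779 CPM in controls, with control 3 at 3646 CPM. Summed stroma markers (7 of 7) lay at 464 to 2409 and 552 to 3375 CPM, with control 3 lowest of the controls. In these bulk samples fewer cells of a type and less RNA per cell cannot be told apart. Markers of the other cell types were lower, the sum being 18.6 to 61.0 CPM for endothelium (5 listed), 7.42 to 26.7 for leukocytes (5) and 45.1 to 232 for podocytes (4). It was 9.31 to 15.3 CPM for proximal tubule (5), 0.817 to 8.86 for loop of Henle (2) and 5.99 to 61.5 for principal cells (4). Aqp2, the water channel that defines principal cells, averaged 0.0597 CPM and Slc22a6, a proximal tubule transporter, 0.00944 CPM. The ranges of all 8 marker sums overlapped between the groups, and the part of cell makeup and of transcript length in the values below was not tested.

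Per unit of length (TPM of the transcript row with the most reads), the order of the 8 RNAs was Malat1, Neat1, Gas5, Snhg1, Epb41l4aos, Snhg12, Mir17hg and Kcnq1ot1. Malat1 averaged 3512 TPM over the 8 cultures and its lowest culture (714 TPM) lay above the highest of Neat1 (520 TPM). Neat1 averaged 318 TPM and Gas5 210 TPM, their ranges overlapped, and Neat1 was above Gas5 in 7 of 8 cultures. Gas5 was above Snhg1 (mean 120 TPM) in 8 of 8 cultures although their ranges touched. Snhg1 did not overlap Epb41l4aos (43.0 TPM), nor Epb41l4aos Snhg12 (18.996 TPM). Snhg12 and Mir17hg (6.72 TPM) overlapped in range, as did Mir17hg and Kcnq1ot1 (1.94 TPM), but in each of these pairs the first was above the second in 8 of 8 cultures. By reads rather than per length, Malat1 ranked between place 1 and place 4 of all genes in every culture, Neat1 between 19 and 490, and Snhg12 between 9942 and 10959.

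Malat1 is a single-exon gene on the minus strand of chromosome 19 (GRCm38, chr19:5795690-5802672), and the table's row of 6982 bp spans it. Its 3' end is made not by polyadenylation but by cutting off a tRNA-like RNA, mascRNA (chr19:5795924-5795981, 58 bases), and the new end folds a pair of U-rich motifs around an A-rich tract into a triple helix that protects it from decay. The last 110 bases before mascRNA (chr19:5795982-5796091, minus strand, 5' to 3', from GENCODE M21) are shown because this genome-encoded A tract, with a run of 12 A, is what a poly-A selected library can capture of an RNA without a poly-A tail. Capitals mark the U-rich motifs, written with T, and the A-rich tract.
Malat1 3' end: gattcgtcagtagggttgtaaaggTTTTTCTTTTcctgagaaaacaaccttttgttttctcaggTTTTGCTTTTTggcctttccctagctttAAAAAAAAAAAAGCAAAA
Malat1 took 1.61%, 1.34%, 1.96% and 2.10% of all counts in GDNF cultures 6, 12, 17 and 22, and 0.338%, 0.878%, 1.17% and 1.56% in controls 3, 7, 14 and 21. The 95% Wilson interval of the lowest share was 0.336% to 0.339%, and that of the highest 2.098% to 2.105%, which cover counting error only. In CPM (counts per 1000000 of the TMM-scaled library) the level was 15099, 12451, 18340.0 and 18998 after GDNF and 4272, 8946, 12159.6 and 15853 in controls. GDNF cultures were high and within 1.53-fold of one another, the controls were spread over 3.71-fold, and the groups overlapped because control 21 exceeded GDNF 6 and 12. The mean was 16222 ± 3037 CPM after GDNF and 10308 ± 4914 CPM in controls (SD, n = 4), a log2 fold change of 0.65 (SE 0.35). Control 3 held 0.347 times the mean level of the other controls, and without it the log2 fold change was 0.40.

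Neat1 lies beside Malat1 on the same strand (chr19:5824708-5845480) and is made as a short polyadenylated transcript and a long one of which only the long form builds paraspeckles. The table's row, 3177 bp long, is the short form (Neat1-202 in GENCODE, chr19:5842307-5845476); the long form, Neat1-201, spans 20771 bp. Both start at the same promoter, so reads of the row can come from either, and the part found only in the long form was not analysed here. The last 60 bases of the short form (chr19:5842307-5842366, minus strand) are shown because the capitals, a poly-A signal 14 bases from the end, mark where the row stops and the long form reads on.
Neat1 short form, 3' end: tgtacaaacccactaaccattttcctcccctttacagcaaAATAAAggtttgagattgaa
Neat1 stood at 551, 661, 671 and 780.3 CPM after GDNF and at 276, 411, 536 and 512 CPM in controls. Every GDNF culture was above every control, though GDNF 6 exceeded control 14 by little. Neat1 was the 1 of 8 members whose groups did not overlap in CPM with GDNF above, as did 6.99% of the 16557 genes tested, and 0 of 8 had control above, as did 6.26%. Its mean was 666 ± 93.6 CPM after GDNF and 434 ± 118 CPM in controls (SD, n = 4), a log2 fold change of 0.62 (SE 0.22), and 0.45 without control 3. Malat1 and Neat1 were counted in a ratio of 18.8 to 27.4 Malat1 reads per Neat1 read after GDNF and 15.5 to 30.9 in controls, ranges that overlapped.

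**Figure D1:**
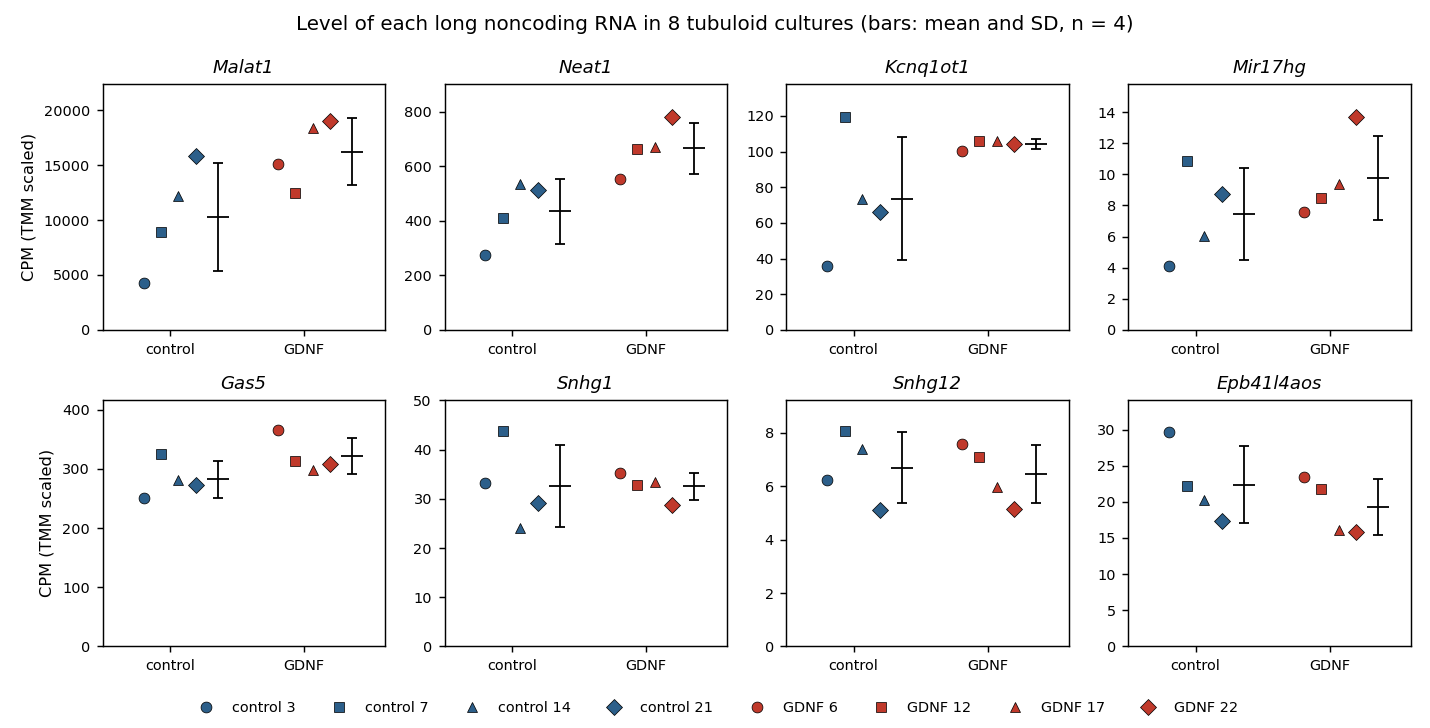
Level of each of the 8 RNAs (vertical axes, CPM of the TMM-scaled library, starting at 0) in 4 control and 4 GDNF cultures, 1 symbol per culture, with the mean and SD of each group beside the points. Neat1 is the panel in which all GDNF cultures sit above all controls; control 3 is the lowest point for Malat1 (4272 CPM), Neat1, Kcnq1ot1, Mir17hg and Gas5 and the highest for Epb41l4aos (29.7 CPM).

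Kcnq1ot1 runs against Kcnq1 inside its span (chr7:143213111-143296547, minus strand) and its row, 83437 bp, is 1 unspliced exon. Of the GENCODE form of the transcript, 121 bases also lie in exons of Kcnq1. How strand was used in counting is not given in the sources used here, so reads in those bases could belong to either gene. The rest of the row also lies in the span of Kcnq1, so reads of unspliced Kcnq1 RNA could fall there too. Their part in the counts was not tested. It stood at 100.4, 106, 106 and 104 CPM after GDNF and at 35.8, 119, 73.4 and 66.3 CPM in controls. The 4 GDNF cultures lay within 1.06-fold of one another and the controls over 3.33-fold, with control 7 above every GDNF culture and the other controls below. The mean was 104 ± 2.64 CPM after GDNF and 73.7 ± 34.4 CPM in controls (SD, n = 4), a log2 fold change of 0.50 (SE 0.29). Leaving out control 3 gave 0.27 and leaving out control 7 gave 0.83. Kcnq1 itself, a potassium channel gene, averaged 5.26 ± 1.82 CPM after GDNF and 4.49 ± 1.73 CPM in controls (edgeR, log2 fold change 0.23, SE 0.38, adjusted p = 0.750).

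Among the host genes, Gas5, Snhg1 and Snhg12 are of the class whose transcripts can begin with a 5' terminal oligopyrimidine (TOP) tract, the start shared by genes of the translation machinery. A TOP start was taken as a C within 5 bases of the start site followed by at least 5 bases that are C or T, sense strand only. A TATA box was taken as the letters TATA between 40 and 15 bases upstream, sense strand only, and cannot overlap the tract. Of 32851 RefSeq promoter entries (GRCm38.p6) 10.2% held the first, 5.91% the second and 0.606% both. The start windows of the 3 genes, 45 bases before and 30 after the start, are shown since 2 of the 3 hold both. Capitals mark the tract, which by the definition used does not occur in the Snhg1 window; TATA occurs in all 3. The coordinates are chr1:161035121-161035195, chr4:132308633-132308707 and chr19:8723442-8723516, all on the plus strand.
Gas5: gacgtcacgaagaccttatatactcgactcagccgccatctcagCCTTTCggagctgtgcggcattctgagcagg
Snhg12: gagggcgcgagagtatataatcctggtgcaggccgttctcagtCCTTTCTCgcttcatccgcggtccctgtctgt
Snhg1: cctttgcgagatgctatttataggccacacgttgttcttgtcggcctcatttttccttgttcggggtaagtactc
A match describes these letters and not how the gene is transcribed. Gas5 has a second, upstream entry at chr1:161034556-161034630 with neither motif. Among the other snoRNA host genes, 3 of 14 genes with an entry held a TOP start, and among the TOP-type translation genes 5 of 11.

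Gas5 (chr1:161034601-161038539, plus strand), a growth-arrest RNA, is listed as 1 row of 2554 bp that matches a retained-intron transcript starting at 161035166, so the row takes in intron sequence. Its start overlaps that of Zbtb37 on the other strand by 263 bases, with 0 exonic bases of the row shared with that gene. It stood at 366, 313, 298 and 309 CPM after GDNF and at 251, 325, 282 and 273 CPM in controls. The groups overlapped through control 7, and all 8 cultures kept within a narrow band. The mean was 321 ± 30.4 CPM after GDNF and 283 ± 31.1 CPM in controls (SD, n = 4), a log2 fold change of 0.19 (SE 0.14). On the deposited TPM scale its groups did not overlap, with 233 to 268 TPM after GDNF and 115 to 204 TPM in controls. By TPM 2 of the 8 members had GDNF above control, Neat1 and Gas5, which is near the share of 20.6% of all genes. All 8 had a higher mean TPM after GDNF, but so had 78.8% of all genes, so a higher mean TPM was not particular to the members.

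Snhg1 (chr19:8723487-8726326, plus strand), which starts head to head with Slc3a2 at 118 bases, stood at 35.2, 32.8, 33.4 and 28.7 CPM after GDNF and at 33.1, 43.7, 24.1 and 29.2 CPM in controls. The controls bracketed the GDNF cultures on both sides. The means were 32.5 ± 2.76 and 32.5 ± 8.32 CPM (SD, n = 4), a log2 fold change of -0.00 (SE 0.19).

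Snhg12 (chr4:132308678-132311024, plus strand), whose end lies 739 bases from that of Trnau1ap on the other strand, was counted at 7.58, 7.08, 5.98 and 5.16 CPM after GDNF and at 6.22, 8.08, 7.40 and 5.09 CPM in controls. No order between the groups was seen, and the means were 6.45 ± 1.09 and 6.70 ± 1.32 CPM (SD, n = 4), a log2 fold change of -0.05 (SE 0.22).

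Epb41l4aos lies on chromosome 18, where its end is 338 bases from that of Epb41l4a on the other strand. It has 2 rows, of 433 and 370 bp, with nearly the same counts (1143 and 1032 in GDNF 6, 1105 and 1039 in control 3), so the sum of both counts most reads in each. The sum stood at 23.5, 21.8, 16.1 and 15.8 CPM after GDNF and at 29.7, 22.2, 20.2 and 17.3 CPM in controls. Here control 3 was highest and GDNF 22 lowest, with overlap in between. The means were 19.3 ± 3.92 and 22.4 ± 5.29 CPM (SD, n = 4), a log2 fold change of -0.21 (SE 0.21), which shrank to -0.05 without control 3.

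The coding genes named here, next to these RNAs, did not pass edgeR's test over all 16557 genes. Slc3a2, the amino acid transporter heavy chain, averaged 252 ± 25.5 CPM after GDNF and 269 ± 44.4 CPM in controls (SD, n = 4), with an edgeR log2 fold change of -0.09 (SE 0.16, adjusted p = 0.750). Trnau1ap, which takes part in selenocysteine insertion, averaged 42.3 ± 9.10 and 54.3 ± 15.3 CPM (log2 fold change -0.36, SE 0.22, edgeR adjusted p = 0.352), and Epb41l4a 15.3 ± 5.03 and 16.5 ± 7.91 CPM (-0.11, SE 0.39, edgeR adjusted p = 0.890). For Zbtb37, which overlaps the start of Gas5, the log2 fold change was 0.40 (SE 0.25, edgeR adjusted p = 0.367).

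Mir17hg gives rise to 6 hairpins on chromosome 14, plus strand, whose leading mature microRNAs fall into 4 seed families. They are shown because the hairpins have rows of their own in the tables and because the family, not the locus, sets which messages are bound; capitals mark the seed, bases 2 to 8, from RefSeq (GRCm38.p6).
miR-17-5p: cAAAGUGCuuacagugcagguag
miR-20a-5p: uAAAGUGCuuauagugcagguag
miR-18a-5p: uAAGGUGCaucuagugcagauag
miR-19a-3p: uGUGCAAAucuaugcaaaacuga
miR-19b-3p: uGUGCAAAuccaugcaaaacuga
miR-92a-3p: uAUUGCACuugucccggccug
The first pair shares 1 seed, miR-18a differs from it within the seed, the miR-19 pair shares another, and miR-92a stands alone. The 6 hairpins lie between chr14:115043671 and chr14:115044506 in the order Mir17, Mir18, Mir19a, Mir20a, Mir19b-1 and Mir92-1. The table's Mir17hg row (chr14:115044390-115046728, 2339 bp) begins 1511 bases downstream of the GENCODE transcript, so 1 of 6 hairpins, Mir92-1, lies inside it and the others are in the primary transcript upstream of the row.

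The Mir17hg row stood at 7.61, 8.45, 9.40 and 13.6 CPM after GDNF and at 4.09, 10.9, 6.06 and 8.70 CPM in controls. GDNF 22 was highest and control 3 lowest, and control 7 exceeded 3 of the GDNF cultures. The means were 9.77 ± 2.68 and 7.43 ± 2.97 CPM (SD, n = 4), a log2 fold change of 0.40 (SE 0.32), and 0.19 without either control 3 or GDNF 22.

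With 75 bp reads the 6 hairpin rows count RNA longer than the mature microRNAs of 21 to 23 bases. They summed to 179, 354, 439 and 589 counts in GDNF 6, 12, 17 and 22 and to 37, 272, 265 and 368 counts in controls 3, 7, 14 and 21. Control 3 was far below all others, at 0.153 times the mean CPM of the other controls, and GDNF 22 was the highest culture in each of the 6 rows. Mir20a, for instance, was counted 28, 62, 85 and 118 times after GDNF and 6, 48, 45 and 60 times in controls. The log2 fold changes of the 6 rows ran from 0.35 for Mir92-1 (SE 0.60) to 0.86 for Mir20a (SE 0.66), all upward and with groups that overlapped. None passed edgeR's test (smallest adjusted p = 0.454, 0 of 6 at an unadjusted p of 0.05), and their median of 0.81 was 0.45 without control 3.

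**Figure D2:**
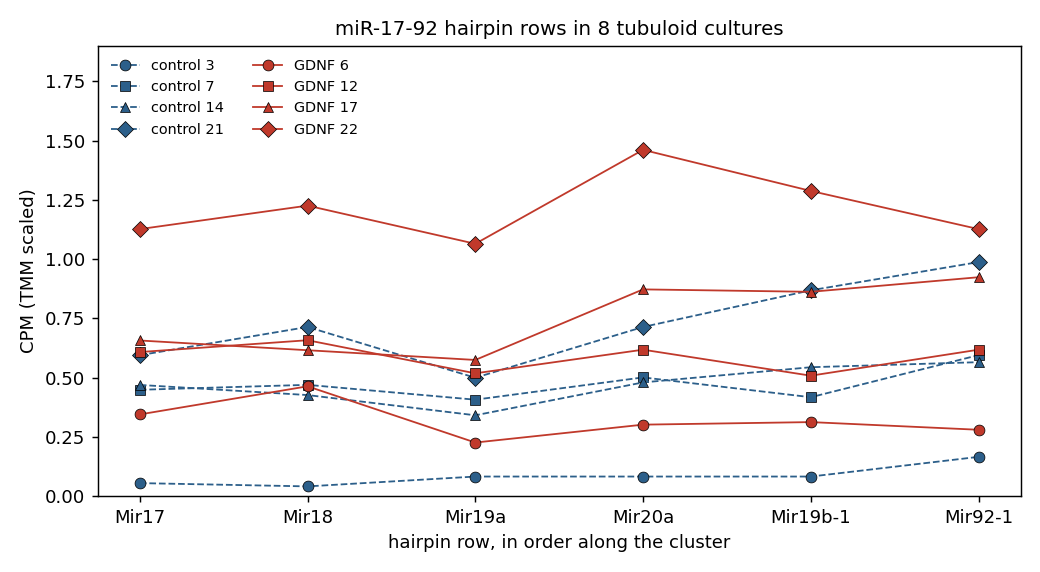
CPM (vertical axis, from 0) of the 6 miR-17-92 hairpin rows in their order along the cluster (horizontal axis), 1 line per culture, red and solid for GDNF, blue and dashed for control. GDNF 22 is the top line at every hairpin and control 3 the bottom line, while the other controls lie among the GDNF cultures.

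Rows for snoRNAs were also found inside the host genes, 6 in all. In poly-A selected libraries, reads in such rows can come from unspliced host RNA as well as from the snoRNA. Snord47 (65 bases), Snora61 (62) and Snord99 (56) are shorter than 1 read of 75 bp. Which RNA was counted was not tested, so the values are those of the rows and not of mature snoRNAs. Snord47, a box C/D snoRNA inside Gas5 (chr1:161038092-161038156), was counted 272, 322, 290 and 224 times after GDNF and 94, 264, 191 and 147 times in controls. In CPM every GDNF culture (2.77 to 3.21) was above every control (1.30 to 2.76), although GDNF 22 and control 7 were nearly level; the edgeR log2 fold change was 0.60 (SE 0.28, adjusted p = 0.244). Snord22, inside Snhg1, was counted 250, 294, 225 and 174 times after GDNF and 93, 260, 121 and 143 times in controls, with control 7 among the GDNF cultures (log2 fold change 0.53, SE 0.32, edgeR adjusted p = 0.343). The 4 rows inside Snhg12 held few reads: Snora44 stood at 0.86 (SE 0.56), Snora61 at 0.13 (SE 0.40), Snord99 at -0.53 (SE 0.46) and Snora16a at -0.74 (SE 0.67) on the log2 scale. None of the 6 passed (edgeR, 0 of 6 at an unadjusted p of 0.05). Of the 65 bases of Snord47, 0 lie in the 4 exons of the GENCODE transcript that matches the Gas5 row, and likewise 0 bases of the other 5 in their hosts' exons.

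Of the snoRNA rows elsewhere in the genome, gathered after the values of the nested rows were seen, 87 were tested. Reads in these rows, too, can come from longer RNA around the snoRNA. Their median log2 fold change was 0.52, where that of all 16557 genes was 0.03, with 79 above 0 and 8 below. By edgeR 0 passed the adjusted test. At an unadjusted p of 0.05 13 (14.9%) were upward and 0 downward, against 9.25% and 12.9% of all genes. Without control 3 the counts were 5 (5.75%) and 0, against 5.86% and 8.18% of all genes, so the upward share was then no higher. With library size only they were 24 (27.6%) and 0, against 19.9% and 5.13%. In 20 of the 87 every GDNF culture was above every control, as in 6.99% of all genes. Snora28, of the box H/ACA class, stood at 12.8 ± 2.33 CPM after GDNF and 7.07 ± 2.30 in controls (log2 fold change 0.85, SE 0.26, edgeR adjusted p = 0.167). Snord96a, of the box C/D class, stood at 8.74 ± 0.924 and 5.62 ± 1.13 CPM (0.64, SE 0.21, the same adjusted p). Against the control mean, the median snoRNA row lay at -0.49 in control 3, at 0.02 to 0.19 in the other controls and at 0.38 to 0.54 after GDNF (log2). Other microRNA rows, 349 tested and also gathered afterwards, had a median of 0.37, with 273 above 0 and 76 below. At an unadjusted p of 0.05 21 (6.02%) were upward and 8 (2.29%) downward, shares below those of all genes. Without control 3 the counts were 6 (1.72%) and 3 (0.860%), and with library size only 44 (12.6%) and 3 (0.860%). These shares, too, were below those of all genes under the same settings, and 0 passed edgeR's adjusted test. Mir34b (1.97, SE 0.59) and Mir5101 (0.95, SE 0.29), each with an edgeR adjusted p of 0.167, had the smallest unadjusted p. Mir34b held few reads, at 0.281 ± 0.114 CPM after GDNF and 0.0700 ± 0.0298 CPM in controls. Mir5101 stood at 4.34 ± 0.557 and 2.24 ± 0.733 CPM.

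Set against the mean of the controls, the same culture could be low in one kind of RNA and not in another. Control 3 lay at -1.27 for Malat1, -0.65 for Neat1, -1.04 for Kcnq1ot1, -0.86 for Mir17hg and -2.37 for the summed hairpins on the log2 scale, but at -0.17 for Gas5, 0.03 for Snhg1, -0.11 for Snhg12 and 0.41 for Epb41l4aos. Of the snoRNA rows inside the hosts, Snord22 lay at -0.44 in it where Snhg1 lay at 0.03, and Snord47 at -0.59 where Gas5 lay at -0.17. The 4 rows inside Snhg12, with 9 to 30 counts each in control 3, lay on both sides of their control means. Control 7 was the control in which Kcnq1ot1 (0.69), Mir17hg (0.55), Snhg1 (0.43), Snord47 (0.49) and Snord22 (0.63) were highest. GDNF 22 was highest of all cultures for Malat1 (0.88), Neat1 (0.85) and Mir17hg (0.88) and the lowest for Epb41l4aos (-0.50).

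**Figure D3:**
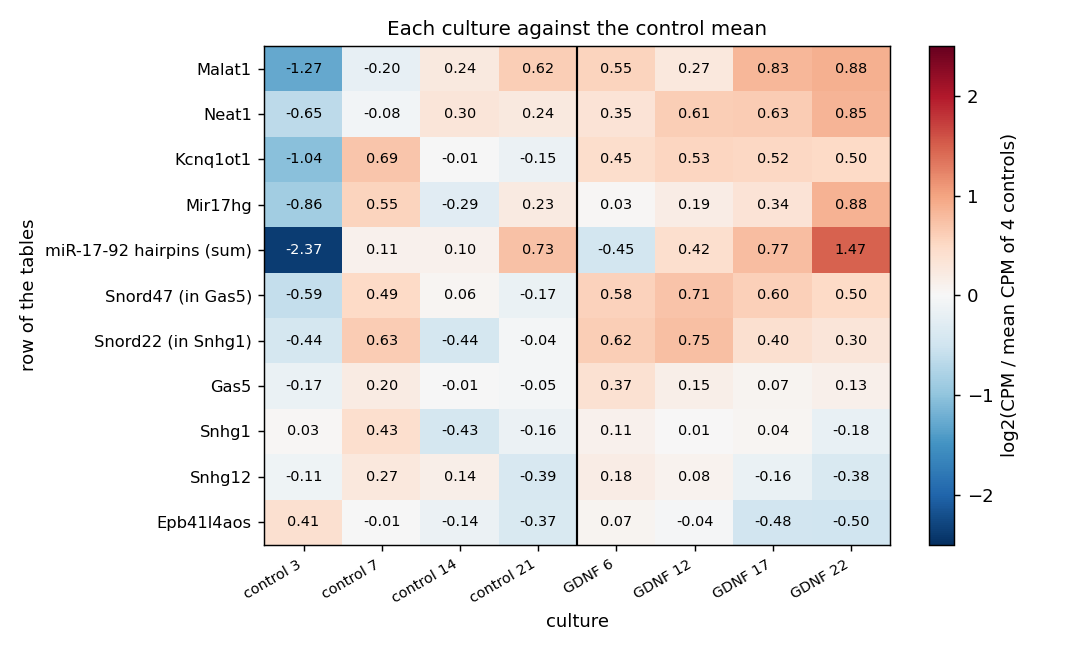
Level of each RNA (rows) in each culture (columns, controls left of the line) as log2 of its CPM over the mean CPM of the 4 controls; red is above and blue below that mean. Control 3 is blue in Malat1, Neat1, Kcnq1ot1, Mir17hg and the hairpin sum (-1.27, -0.65, -1.04, -0.86 and -2.37) and near 0 or red in the 4 spliced host or neighbour RNAs below.

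Xist RNA stood at 334 to 1078 CPM in GDNF 6 and 12 and controls 3 and 7 and at 0 to 1.72 CPM elsewhere, and the sum of Y-linked RNA at 210 to 257 CPM in GDNF 17 and 22 and controls 14 and 21 and at 0 to 8.78 CPM elsewhere. Each kind was also compared within itself, with 2 against 2 cultures and hence no test. The ratio of mean CPM, GDNF over control, was 2.08 among the first and 1.33 among the second for Malat1, 1.76 and 1.38 for Neat1, and 1.33 and 1.503 for Kcnq1ot1. For Mir17hg it was 1.07 and 1.56, for Gas5 1.18 and 1.09, for Snhg1 0.884 and 1.16, for Snhg12 1.03 and 0.892, and for Epb41l4aos 0.871 and 0.849. Malat1, Neat1, Kcnq1ot1, Mir17hg and Gas5 were thus higher in the mean after GDNF among both kinds of culture. Epb41l4aos was lower among both, while Snhg1 and Snhg12 differed in direction between them. The first comparison contains control 3, and the share of all genes with 1 direction in both kinds is not given here.

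In all, 5 of the 8 members had a higher mean CPM after GDNF, compared with 52.5% of all genes, in the order Malat1, Neat1, Kcnq1ot1, Mir17hg and Gas5, and 3 did not. With library size only in place of composition factors, the median of all genes moved from 0.03 to 0.25 and every member moved up with it. Malat1 then stood at 0.83, Neat1 at 0.81, Kcnq1ot1 at 0.68, Mir17hg at 0.58, Gas5 at 0.39, Snhg1 at 0.21, Snhg12 at 0.16 and Epb41l4aos at 0.02, so that the last 3 turned sign. Relative to that shift the order of the 8 was kept. The SD of log2 CPM within groups was 0.61 for Malat1, 0.51 for Mir17hg and 0.50 for Kcnq1ot1, above the median of 0.34 over all genes tested. That of Neat1 was 0.34 and that of Gas5 0.14. With edgeR 0 of 16557 genes (0.0%) passed an adjusted p of 0.05 (smallest adjusted p = 0.167), and 3665 (22.1%) had an unadjusted p under 0.05, while DESeq2 called 1346 of 9170 genes with an adjusted p (14.7%). Of the 3665, 1531 were upward and 2134 downward, but with library size only 3299 were upward and 850 downward. Without GDNF 22, GDNF 12 or control 3 the 3665 became 2192, 2321 or 2359.

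**Figure D4:**
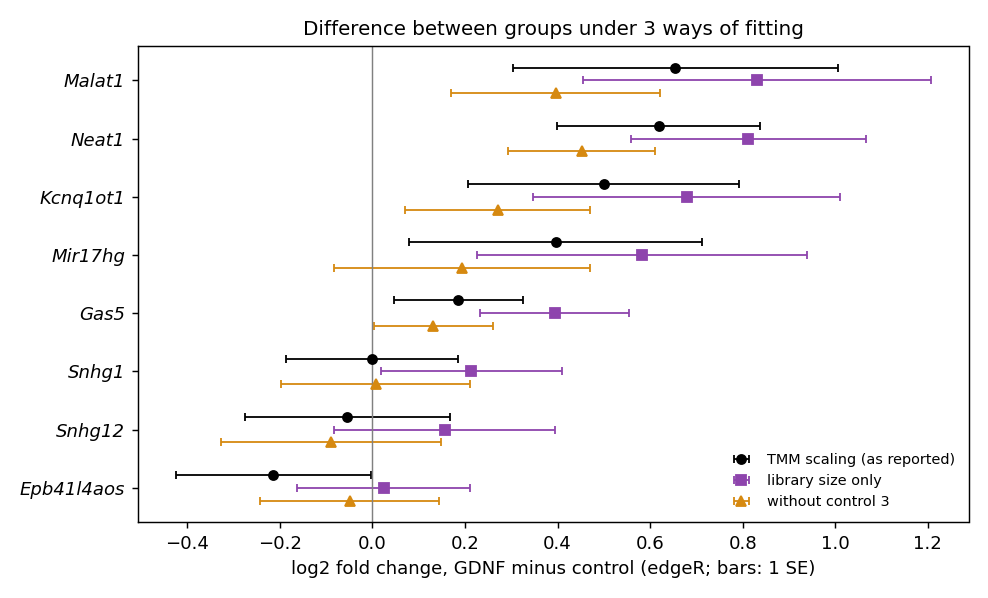
Log2 fold change, GDNF minus control (horizontal axis), of each of the 8 RNAs with bars of 1 SE, fitted with TMM scaling, with library size only and without control 3. Malat1 goes from 0.65 to 0.83 and 0.40 across the 3 fits, and Snhg1, Snhg12 and Epb41l4aos lie on both sides of 0.

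Genes that work with these RNAs were read from 13 lists in the same edgeR fit. None of the 167 list genes passed edgeR's adjusted test (0 of 167), and 47 had an unadjusted p under 0.05, as had 22.1% of all genes. DESeq2 called 25, and over all genes it called 14.7% of those with an adjusted p. Some list genes had no adjusted p by DESeq2. Upward and downward below count the genes at an unadjusted p of 0.05 by edgeR. Over all genes these were 9.25% and 12.9%, or 19.9% and 5.13% with library size only and 5.86% and 8.18% without control 3. Of the partners of nuclear RNAs, 10 nuclear speckle proteins had a median log2 fold change of 0.36, 5 upward (3 without control 3, 8 with library size only) and 0 downward. Srrm2, a scaffold protein of speckles, stood at 380 ± 25.4 CPM after GDNF and 261 ± 50.7 in controls (0.54, SE 0.17, edgeR adjusted p = 0.167). Pnn, a splicing regulator, stood at 216 ± 26.6 and 139 ± 35.3 (0.64, SE 0.20, the same adjusted p). Of 10 paraspeckle proteins 4 were upward and 1 downward (median 0.22), among the former Hnrnph3, an RNA-binding protein (0.52, SE 0.19, edgeR adjusted p = 0.179). Of 9 genes of 3' end processing and nuclear decay 2 were upward (5 with library size only) and 0 downward (median 0.22), Pabpn1, the nuclear poly-A binding protein, at 0.51 (SE 0.15), and Zfc3h1, which leads polyadenylated RNA to the exosome, at 0.64 (SE 0.23).

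Around the host genes the lists lay on both sides of 0. Of 15 other snoRNA host RNAs 3 were upward and 0 downward (median 0.18), or 9 and 0 with library size only (median 0.42). Snhg16 stood at 63.3 ± 5.83 CPM after GDNF and 42.1 ± 8.07 in controls (0.59, SE 0.16), and its fellow host Snhg17 at 110 ± 10.8 and 74.1 ± 13.5 (0.58, SE 0.16; edgeR adjusted p = 0.167 for each). Of 10 snoRNP proteins 0 were upward (1 with library size only) and 3 downward (median -0.29), with Snu13, a box C/D core protein listed as Nhp2l1, at -0.62 (SE 0.17) and Nop10, of the box H/ACA core, at -0.80 (SE 0.25; edgeR adjusted p = 0.167 for each). Of 17 TOP-type translation genes all 17 lay below 0 with TMM scaling and 15 with library size only. With TMM scaling 11 were downward (median -0.60, and -0.46 without control 3), and with library size only 10. Of the 25 list genes that DESeq2 called, 11 were in this list. Eif3e, an initiation factor subunit, stood at 143 ± 9.66 and 214 ± 32.8 CPM (-0.59, SE 0.14). Eef1d, an elongation factor subunit, stood at 701 ± 91.1 and 1146 ± 251 CPM (-0.71, SE 0.19; edgeR adjusted p = 0.167 for both). Gas5 and Snhg12, with a TOP start in the windows shown above, stood at 0.19 and -0.05. Of 15 nonsense-mediated decay genes 5 were upward and 2 downward (median 0.32), or 1 and 1 without control 3 and 9 and 1 with library size only, with Smg5, a decay factor, at 0.62 (SE 0.20) and Magoh, of the exon junction complex, at -0.67 (SE 0.21; edgeR adjusted p = 0.167 for each).

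For Mir17hg, 16 regulators and known targets of its microRNAs had a median of 0.19, 3 upward (1 without control 3, 5 with library size only) and 0 downward. E2f3, a transcription factor of the cell cycle, stood at 31.5 ± 4.32 CPM after GDNF and 24.0 ± 2.60 in controls (0.40, SE 0.15, edgeR adjusted p = 0.186). Pkd2, the floxed polycystin gene of these mice and a known target, stood at 69.9 ± 8.82 and 51.6 ± 8.98 CPM (0.44, SE 0.17, edgeR adjusted p = 0.187). Of 7 microRNA processing genes all lay above 0 and 1 was upward (0 without control 3, 2 with library size only), Dicer1, which cuts hairpins into mature microRNAs (0.49, SE 0.18, edgeR adjusted p = 0.183); Dgcr8 stood at 0.19 (SE 0.14). Of 10 proliferation genes 1 was upward (0 without control 3) and 2 downward (median -0.37), the latter being Cdk1 (-0.70, SE 0.17) and Pcna (-0.58, SE 0.16; edgeR adjusted p = 0.167 for each). In the imprinted cluster of Kcnq1ot1, 1 of 10 genes was downward and 0 upward (median -0.23, and 0.00 with library size only). Cdkn1c, a cell cycle inhibitor that is silenced on the chromosome that makes Kcnq1ot1, stood at 20.9 ± 6.14 CPM after GDNF and 40.1 ± 7.35 in controls (-0.94, SE 0.22, edgeR adjusted p = 0.167), and every control was above every GDNF culture. Nap1l4 in the same cluster stood at -0.28 (SE 0.15, edgeR adjusted p = 0.287).

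The remaining lists held other long noncoding RNAs and chromosomal neighbours. Of 23 other long noncoding RNAs 2 were upward (4 with library size only) and 0 downward (median 0.26). Firre, a nuclear RNA of the X chromosome, stood at 356 ± 79.9 and 179 ± 74.2 CPM (0.99, SE 0.29, edgeR adjusted p = 0.167) with every GDNF culture above every control. Tug1, a widely expressed RNA, stood at 296 ± 45.6 and 207 ± 56.5 CPM (0.52, SE 0.22, edgeR adjusted p = 0.214). Of 16 neighbours of the members on the chromosome 1 was upward (0 without control 3, 3 with library size only) and 0 downward (median 0.03), Ltbp3, which lies near Malat1 and binds latent TGF-beta (0.51, SE 0.20, edgeR adjusted p = 0.187); Phactr4, near Snhg12, stood at 0.27 (SE 0.14).

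**Figure D5:**
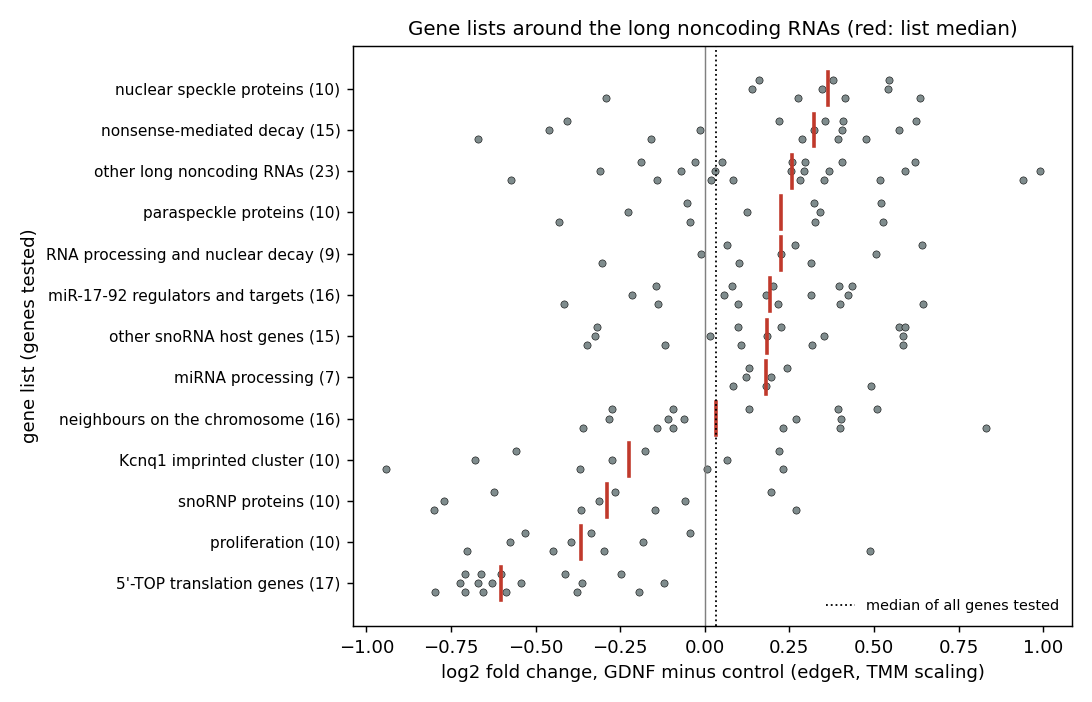
Log2 fold change, GDNF minus control (horizontal axis), of every tested gene of the 13 lists, 1 point per gene, with the list median as a red bar and the median of all genes tested (0.03) as a dotted line. With this scaling the medians run from -0.60 for the TOP-type translation genes to 0.36 for the nuclear speckle proteins.

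Last, the genes whose profile over the 8 cultures was most like that of each member were sought among 11460 genes with a mean of at least 5 CPM, by the root mean square (RMS) difference of log2 CPM after centring. All profiles share the same libraries and scaling, so the likeness is a description. For Malat1 the nearest were Zhx3 (RMS 0.205), Slc18a2 (0.229) and Arglu1 (0.230), with a median of 0.730 over all genes. For Neat1 they were Hdac10 (0.0529), Pcm1 (0.102) and Sugp2 (0.103), against a median of 0.540, and for Kcnq1ot1 Ccdc57 (0.124), Ralgapa1 (0.138) and Cep350 (0.142), against 0.637. Mir17hg was nearest to Micu3 (0.137), Plekhm3 (0.166) and Fgd4 (0.167). Gas5 was nearest to Prpf39 (0.0597), Arfrp1 (0.0681) and Ddx5 (0.0705), and Snhg1 to Fut8 (0.102), Mepce (0.113) and Fzd3 (0.127). Snhg12 was nearest to Jmjd6 (0.108), Ing2 (0.120) and Med20 (0.125), and Epb41l4aos to Pecr (0.0970), Gamt (0.101) and Emc10 (0.104), where the medians over all genes were 0.354 to 0.4003. Between members, the smallest differences were those of Gas5 with Snhg12 (0.211) and with Snhg1 (0.217), while Malat1 and Neat1 differed by 0.302. The difference is not scaled by how much each RNA varied. The RMS spread of Gas5's own profile was 0.156, below its differences from Snhg12 and Snhg1, so these do not show a shared profile. The spread was 0.660 for Malat1 and 0.441 for Neat1, both above the difference between them. This was not particular to that pair. Kcnq1ot1 and Mir17hg, with spreads of 0.537 and 0.495, differed by slightly less than Malat1 and Neat1 did. Neat1 differed from Mir17hg by 0.348 and from Kcnq1ot1 by 0.366, and Malat1 from them by 0.446 and 0.476. Each of these differences, too, was below both spreads of its pair.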

How the data were processed

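SMART-Seq v4 libraries, poly-A selected, had been read as 75 bp pairs. Per the labels, the authors aligned with STAR and counted with featureCounts on mm10 (GRCm38), then tested with DESeq2; versions and strand setting are not given in the sources used here, nor is the lane of each culture. The deposited tables hold raw counts, FPKM and TPM per RefSeq transcript; FPKM, which the authors scaled by depth and length, was not used. Counts were summed per symbol. A read that falls in several transcripts of a gene enters each, so shares are of all transcript counts. edgeR 4.0.16 (R 4.3.3, limma 3.58.1), with filterByExpr and TMM factors, tested 16557 genes by quasi-likelihood with Benjamini-Hochberg adjustment over all of them; its common biological coefficient of variation was 36.8%. DESeq2 1.42.0 and limma-voom were alternatives. CPM used effective library sizes. The scripts were tested on simulated counts. TPM was taken as deposited by the authors.

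Members and gene lists were chosen with earlier results of these data known. Named were all members, the 2 genes of each list with the smallest unadjusted p, neighbours that overlap a member or share its promoter region, and 3 like genes per member; Trnau1ap, Epb41l4a, Aqp2, Slc22a6, Snora44, Snora61, Snord99 and Snora16a were named after their values were seen. Some genes that this rule names are not reported here. Rows inside members were found by their position in RefSeq, or in GENCODE M21 where RefSeq had none, within 3000 bases of the member's RefSeq span. RefSeq tables gave mature microRNAs and the promoters of 6 members; Neat1 was not among them.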

Additional observations from a re-analysis of the deposited data

How the results depend on the processing

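With DESeq2 the genes past an adjusted p of 0.05 numbered 1346 (14.7% of those with an adjusted p) in place of 0 with edgeR. The list genes numbered 25 in place of 0. Every other setting, leaving out each culture in turn and an adjusted p of 0.1 included, gave 0 genes (range 0 to 0). At an unadjusted p of 0.05 the count of 3665 fell to 2359 without control 3, to 2321 without GDNF 12 and to 2192 without GDNF 22. Of 136 member fold changes under alternatives 1 moved by more than the within-group SD, that of Gas5, to 0.39 with library size only. This SD is each member's own, 0.61 for Malat1 and 0.14 for Gas5, so the limit is loosest where the cultures spread most. Malat1, at 0.65 with all cultures and 0.40 without control 3, stayed within it, so the count is no measure of robustness. Signs turned for Snhg1 under 7 of 17 settings, Snhg12 under 3 and Epb41l4aos under 1. Leaving out 1 culture at a time, the log2 fold change ran from 0.40 to 0.89 for Malat1 (without control 3 and without control 21), 0.45 to 0.74 for Neat1, 0.27 to 0.83 for Kcnq1ot1, 0.19 to 0.64 for Mir17hg, 0.12 to 0.26 for Gas5, -0.12 to 0.17 for Snhg1, -0.21 to 0.05 for Snhg12 and -0.36 to -0.05 for Epb41l4aos. Of 52 list medians 11 moved, 10 of them with library size only, where that of the Kcnq1 cluster turned from -0.23 to 0.00, and 1, nonsense-mediated decay, without control 3 (0.21); of 24 ratios of mean TPM 0 moved. Leaving control 3 out of the lists and all alternatives for the snoRNA and microRNA rows, inside the members or elsewhere, were added after seeing the data, and gave 0 calls for the lists and the rows inside the members. The cause of the gap between tools was not tested. No paired analysis was possible because the cultures of the groups share no number.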

Other observations

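Over the 56 groups of 4 cultures examined for a culture far from the rest (Dixon's test at its 95% limit, which chance passes in about 5% of groups), 0 met the limit. The 3 nuclear members together took 1.42% to 2.20% of all counts after GDNF and 0.362% to 1.61% in controls. All the other members, Epb41l4aos included, took 0.0387% to 0.0470% and 0.0256% to 0.0403%.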
